A study of Drosophila melanogaster with 31 samples.

Results

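The genes described here are 10 genes of meiotic recombination and double-strand break repair in Drosophila melanogaster ovaries: mei-W68, mei-P22, mei-218, rec, hdm, mei-9, spn-A, okr, spn-B and spn-D. They were taken by symbol from a table of 9251 genes, and all 10 had a row there and in the separate bam mutant table. Meiotic recombination begins in germline cysts of the germarium, the anterior tip of the ovariole, where programmed double-strand breaks are cut in the DNA of the pro-oocytes while the synaptonemal complex holds homologous chromosomes together. A broken end is resected, coated with recombination proteins and paired with the homologous chromosome, and a share of the joints is then cut to give crossovers. In the fly ovary, unrepaired breaks switch on a checkpoint that also disturbs Gurken translation and eggshell patterning, which is how the spindle genes were found.

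The genes act at successive steps. mei-W68 encodes the fly Spo11, the enzyme that cuts the breaks, and mei-P22 encodes its partner in break formation. mei-218 and rec encode members of the meiotic MCM complex, which opposes the Blm helicase and favours crossovers, mei-9 encodes the XPF-type nuclease needed for most crossovers, and hdm encodes an OB-fold protein that works with the Mei-9 nuclease. spn-A, okr, spn-B and spn-D act in strand exchange, in which the broken end is paired with an intact chromosome, and okr encodes the Rad54 helicase-like protein of that step.

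Poly(A) RNA of whole ovaries was sequenced in 31 libraries, of which 28 formed 14 groups of 2 and 3 were single bam-deficient libraries. Total mRNA was measured in 16 of them. Adult and young wild type both carried the UAS-Dcr-2.D transgene in a w[1118] background with the nanos driver GAL4-nos.NGT, and were dissected 1 to 3 days and 0 to 3 hours after eclosion. Every other group was dissected at the adult age. The tst mutant was tstMB10212/Df(3R)Exel9013, with 1 insertion allele over a deficiency, and tst RNAi was UAS-Dcr2;nosGAL4>tst RNAi, in which the nanos driver acts in germ cells while somatic cells of the ovary keep the gene. The pelo mutant pelo1/pelo1 was set against pelo1/CyO and the hfp mutant hfp9/hfp9 against hfp9/TM2, so these controls carry 1 copy of the mutant allele. The tst product is a helicase of the Ski complex that feeds mRNA to the exosome, the pelo product rescues stalled ribosomes and the hfp product is a splicing regulator. Polysome RNA and its matching input were measured for tst RNAi, for pelo1/pelo1 and for a control group whose preparation 1 was the nanos driver line and whose preparation 2 was pelo1/CyO. The bam-deficient libraries were a nosGAL4>bam RNAi input, its polysome sample and a bamΔ86 mutant, in which germ cells stop before cyst formation.

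Values are in TPM, the share of a library's transcripts that a gene makes up after scaling by gene length. The depth of the libraries is unknown. Between 7233 and 8675 genes reached 1 TPM per library. The germline helicase gene vas was between 90.8 and 553 TPM in all libraries. The targeted genes were lower in the groups labelled for them: tst was 6.77 and 11.7 TPM in tst RNAi and 6.34 and 8.62 TPM in the mutant against 35.3 and 39.6 TPM in adult wild type, and 18.0 and 14.4 TPM in tst RNAi inputs against 32.5 and 30.3 TPM in control inputs. pelo was 10.8 and 44.6 TPM in the mutant against 45.1 and 90.5 TPM in the heterozygote, and hfp was 9.29 and 20.8 TPM against 25.8 and 48.1 TPM. The bam RNAi polysome library stood apart from its own input: osk was 479.5 against 2.46 TPM and 9 chorion genes summed to 14030 against 104 TPM, so its values are given separately throughout. Among pelo libraries, replicate 1 of each genotype was low in the summed TPM of 11 germline genes, at 930.4 and 1221 TPM against 3585 and 3780 TPM in the replicates numbered 2.

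The 10 genes covered a graded range of levels. In adult wild type ovaries the highest were spn-A at 39.4 and 39.1 TPM in replicates 1 and 2 and mei-9 at 28.8 and 30.0 TPM. Next came spn-B at 30.4 and 26.1 TPM, okr at 23.9 and 28.8 TPM and spn-D at 11.9 and 16.5 TPM. Of all genes in the table, 54.4% had a lower adult mean than spn-A and 45.9% a lower one than mei-9. All 4 genes of strand exchange were thus above every break-formation gene, since mei-P22 was 2.95 and 5.61 TPM and mei-W68 was 1.89 and 1.67 TPM. The crossover genes covered the whole range, with rec at 7.61 and 7.57 TPM, mei-218 at 0.331 and 0.793 TPM and hdm at 0.212 and 0.285 TPM. By mean level the order was spn-A, mei-9, spn-B, okr, spn-D, rec, mei-P22, mei-W68, mei-218 and hdm. In that order mei-9 overlapped with spn-B and spn-B with okr, and no other neighbours overlapped in these 2 libraries. spn-A, okr, spn-B, spn-D, mei-9, rec and mei-P22 were at or above 1 TPM in all 31 libraries, whereas mei-W68 reached 1 TPM in 20, hdm in 9 and mei-218 in 8.

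The genes also differed in how far they varied across the 16 total mRNA libraries. spn-A and okr were the steadiest, with the highest library 2.34 and 2.53 times the lowest. spn-B spanned 3.20 times, mei-P22 4.28 times, mei-9 4.52 times, spn-D 4.68 times, rec 6.21 times, mei-218 7.14 times and mei-W68 10.9 times. hdm spanned 29.3 times, from 0.0736 TPM in an hfp heterozygote to 2.16 TPM in a young wild type library, with most values below 1 TPM.

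**Figure D1:**
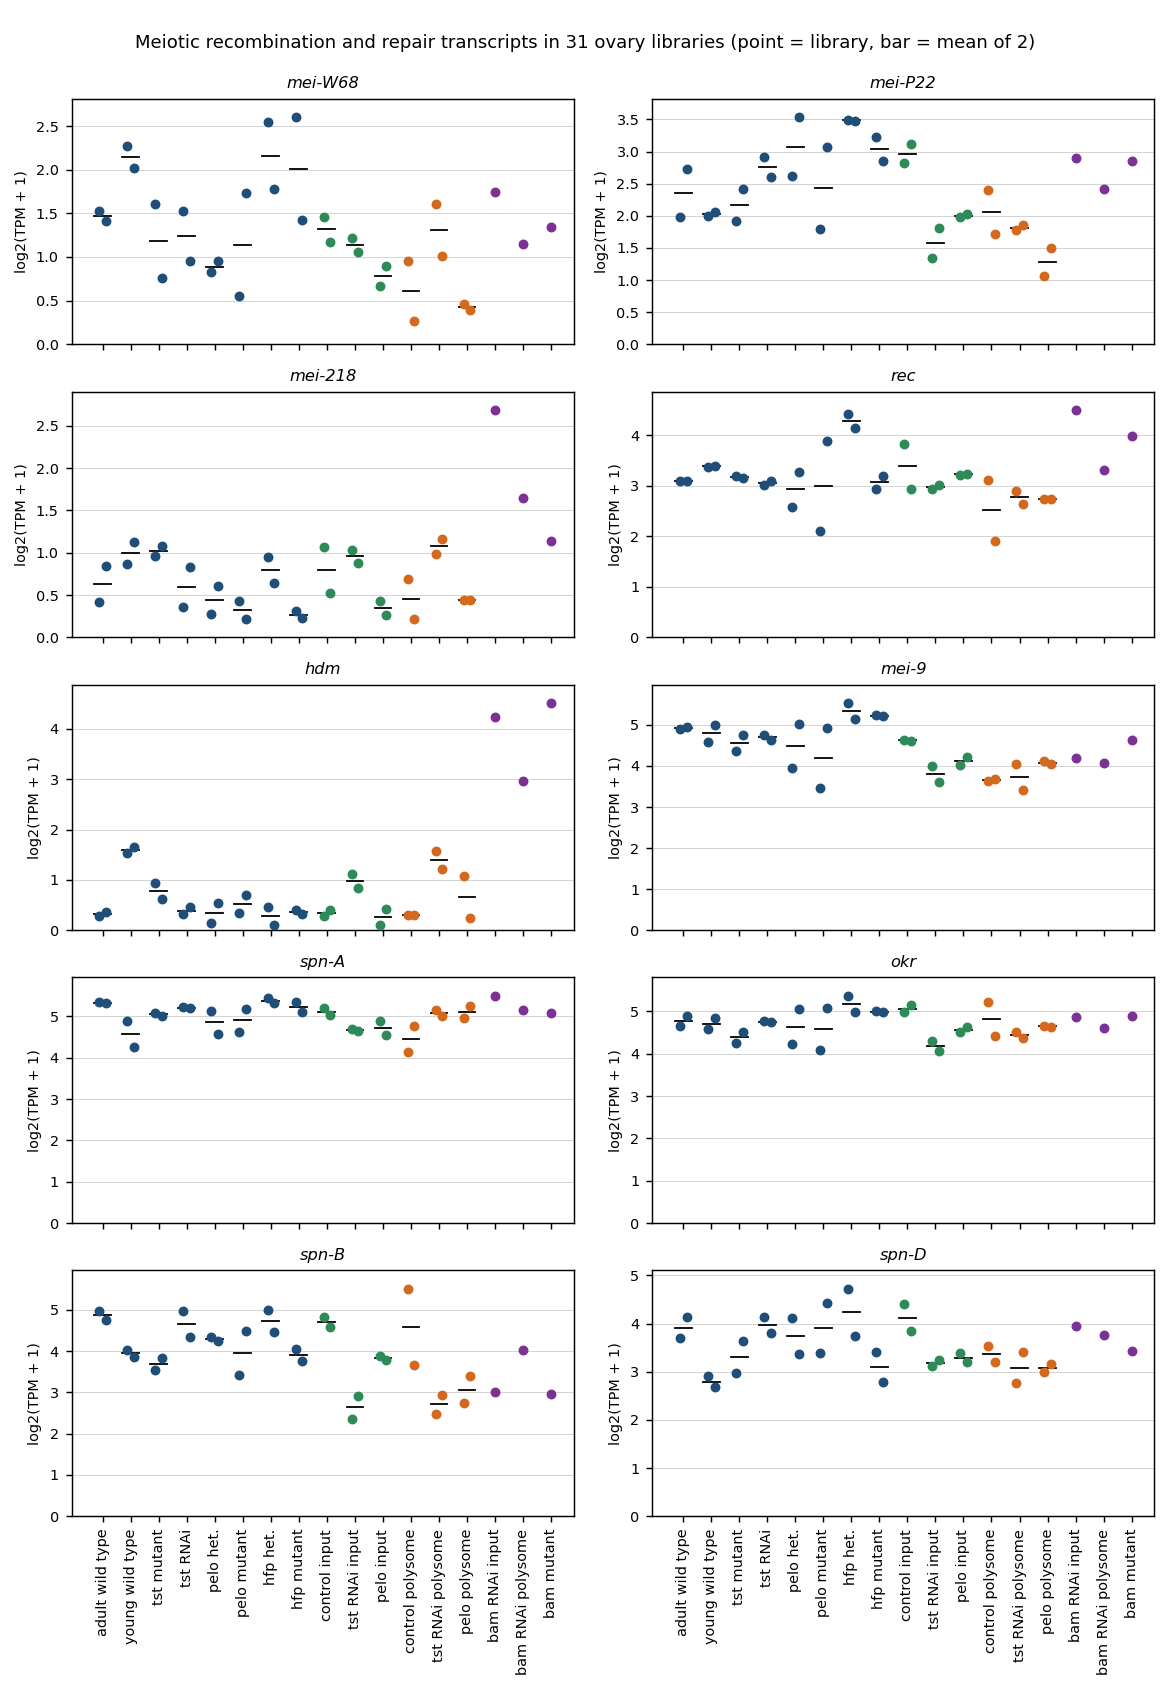
Level of each of the 10 genes in all 31 libraries on the log2(TPM + 1) scale, with 1 point per library, bars at the mean of 2 libraries, and total mRNA in blue, inputs in green, polysomes in orange and bam-deficient libraries in purple. hdm is high in the 3 purple libraries (6.85 to 21.96 TPM) and spn-B is low in the tst RNAi inputs and polysomes (4.15 to 6.65 TPM), while spn-A and okr stay within a narrow band.

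Ovaries of newly eclosed flies were compared with adult wild type ovaries. hdm was 1.90 and 2.16 TPM in the young libraries against 0.212 and 0.285 TPM in the adult ones, with no overlap. Its log2 fold change, on the log2(TPM + 1) scale used for all changes here, was 1.28 (SE 0.26, limma adjusted p = 0.00793). hdm was the only one of the 10 genes that passed the adjusted p threshold of 0.05, against a background of 11.1% of all 8864 genes tested in either direction and 7.93% higher. hdm entered the test only because the 2 young libraries were above 1 TPM, so it had to differ and its place among the 10 supports nothing. With no filter on low values, where 1101 of 9251 genes were called, the change was the same with a limma adjusted p of 0.0036. That value and those that follow come from the same libraries and add no support. Within the replicate numbers its change was 1.26 and 1.30, and leaving out young replicate 2, adult replicate 1 or adult replicate 2 gave 1.22, 1.23 and 1.32 with adjusted p of 0.0618, 0.0722 and 0.0612.

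Among the strand-exchange genes, spn-A, spn-B and spn-D had lower values in young ovaries. spn-B was 15.4 and 13.5 TPM in young against 30.4 and 26.1 TPM in adult libraries, with no overlap, a change of -0.92 (SE 0.43, limma adjusted p = 0.216). With the replicate number as a block its adjusted p was 0.0439, where 37.5% of all genes were called, and within the numbers it was -0.94 and -0.90. spn-D was 6.49 and 5.45 TPM against 11.9 and 16.5 TPM, a change of -1.11 (SE 0.51, limma adjusted p = 0.205) that did not pass the test in either fit. spn-A was 28.8 and 18.0 TPM against 39.4 and 39.1 TPM, a change of -0.76 (SE 0.35, limma adjusted p = 0.209), while okr, at 22.8 and 27.5 TPM, overlapped with the adult libraries. The break-formation gene mei-W68 was 3.81 and 3.05 TPM against 1.89 and 1.67 TPM, above both adult libraries but not past the test (change 0.67, SE 0.51). In all, 7 of the 10 genes did not overlap between young and adult libraries, against 66.2% of all genes, and the median change of the 10 was -0.10 beside -0.05 over all genes.

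In the same comparison, where 11.1% of all genes were called, the lists of related genes gave few calls but mostly negative estimates. Of 53 genes in 6 lists of break formation, crossover, resection and strand exchange, checkpoint, end joining and mismatch or excision repair, 1 rose and 2 fell: CG12200 (narya, a RING-domain protein needed for break formation) rose by 1.72 on the log2 scale (SE 0.50), mus81, a nuclease gene, fell by 1.98 (SE 0.56) and the strand-exchange gene Xrcc2 fell by 1.89 (SE 0.53). With the block 2 rose and 17 fell, beside 19.6% and 17.9% of all genes. The median change of the 53 genes was -0.56 beside -0.05 over all genes. Positive estimates were 0 of 8 for crossover, 0 of 17 for resection and strand exchange and 0 of 8 for mismatch and excision repair. They were 2 of 4 for break formation, 2 of 11 for checkpoint and 1 of 5 for end-joining genes. Of 10 synaptonemal complex and cohesion genes, 3 rose, namely the cohesion gene sunn (2.29, SE 0.37) and the synaptonemal complex genes corolla (2.04, SE 0.42) and cona (3.18, SE 0.81), while the segregation gene mtrm fell by 2.57 (SE 0.53). Other cell types moved too. The 9 chorion genes all fell, with summed levels of 43.6 to 88.0 TPM in young against 41380 to 53800 TPM in adult libraries, and 6 of 8 early follicle cell genes rose, summing to 327 to 375 TPM against 107 to 120 TPM. All 11 muscle sheath genes rose, to 5166 to 6846 TPM from 304 to 453 TPM, and 7 of 10 hemocyte and basement membrane genes rose, to 1981 to 2266 TPM from 197 to 244 TPM. The part of these cells in the change of hdm was not tested, and in bulk ovary RNA fewer cells of a type and less RNA per cell cannot be told apart.

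**Figure D2:**
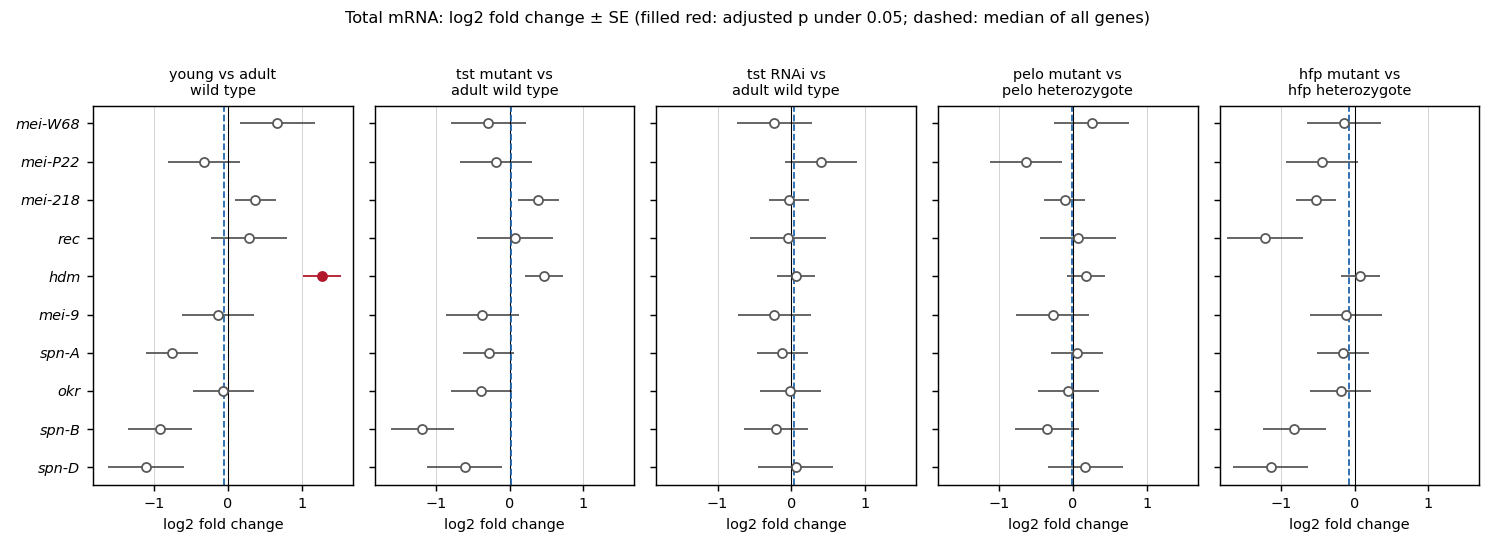
Change of each gene in the 5 total mRNA comparisons as log2 fold change with its SE (horizontal axis, log2(TPM + 1) scale), with the median of all genes as a dashed line and changes past adjusted p = 0.05 filled in red. The single filled point is hdm in young ovaries at 1.28, a gene that was tested only through its 2 young libraries, and spn-B lies at -0.92 in young ovaries and -1.18 in the tst mutant, unfilled in both.

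In the tst mutant, none of the 10 genes passed the limma test against adult wild type, where 4.23% of all genes did. At an unadjusted p under 0.05, 1 of the 10 passed, beside 18.6% of all genes. That gene was spn-B, at 10.6 and 13.2 TPM in the mutant against 30.4 and 26.1 TPM, with no overlap. Its change was -1.18 (SE 0.43, limma adjusted p = 0.15) and was -1.44 and -0.93 within the numbers. With the replicate number as a block its adjusted p was 0.0236, beside 23.5% of all genes called in that fit. spn-D was 6.83 and 11.4 TPM against 11.9 and 16.5 TPM (change -0.61, SE 0.51), and okr was 18.1 and 21.8 TPM against 23.9 and 28.8 TPM (change -0.39, SE 0.41), both without overlap. hdm was 0.926 and 0.545 TPM, above both adult libraries but under 1 TPM (change 0.47, SE 0.26). Groups did not overlap for 8 of the 10 genes, against 61.3% of all genes. Of the 53 related genes none passed the test, and with the block 2 rose and 6 fell. Their median change was -0.41 beside 0.02 over all genes. In the synaptonemal complex list sunn and corolla rose in the fit without the block (1.54, SE 0.37 and 1.80, SE 0.42). Chorion genes summed to 4632 to 8282 TPM in the mutant and 6 of 9 fell, muscle sheath genes to 1416 to 2418 TPM and 6 of 11 rose, and hemocyte and basement membrane genes to 663 to 1526 TPM and 3 of 10 rose. Early follicle cell genes summed to 257 to 480 TPM against 107 to 120 TPM in adult wild type, and 1 of 8 rose. Germline genes summed to 1185 to 2322 TPM against 2611 to 3350 TPM, with none of 11 called. With the block 3 of these 11 rose and 6 fell. The part of these cells in the values of spn-B was not tested.

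Germline tst RNAi left the 10 genes near their adult wild type levels. None passed the limma test and none had an unadjusted p under 0.05, where 1.02% and 7.76% of all genes did. The lowest change was -0.23 for mei-9, at 26.2 and 23.7 TPM against 28.8 and 30.0 TPM, and the highest was 0.40 for mei-P22, at 6.56 and 5.05 TPM against 2.95 and 5.61 TPM. SEs ran from 0.26 for hdm to 0.51 for rec, so differences of that size were not resolved. spn-B was 30.4 and 19.2 TPM in tst RNAi, which overlapped with adult wild type. For 3 of the 10 genes the groups did not overlap, against 37.2% of all genes. None of the 53 related genes passed the test in either fit. Muscle sheath genes summed to 2750 to 2831 TPM in tst RNAi against 304 to 453 TPM in adult wild type. Chorion genes summed to 19270 to 37130 TPM against 41380 to 53800 TPM, and germline genes to 2047 to 2834 TPM against 2611 to 3350 TPM. The part of these cells in the values was not tested.

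The pelo mutant and its heterozygote overlapped for all 10 genes, where 20.8% of all genes did not overlap. None passed the limma test and none had an unadjusted p under 0.05, where 0.226% and 7.64% of all genes did. mei-P22 had the lowest change, -0.64 (SE 0.49), at 2.49 and 7.43 TPM in the mutant against 5.13 and 10.6 TPM. spn-B was 9.65 and 21.5 TPM against 19.4 and 18.1 TPM. The libraries numbered 1, which had the low germline sums, were below those numbered 2 in both genotypes for mei-9, okr, rec, mei-P22, mei-W68 and hdm. For mei-9 the values were 10.1 and 29.6 TPM in the mutant and 14.4 and 31.3 TPM in the heterozygote, so the libraries of 1 genotype differed more than the genotypes did. None of the 53 related genes passed the test.

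In the hfp comparison the crossover gene rec and the strand-exchange gene spn-D had the lowest changes. None of the 10 genes passed the limma test, beside 0.993% of all genes, and 2, rec and spn-D, had an unadjusted p under 0.05, beside 10.3% of all genes. rec was 6.64 and 8.19 TPM in the mutant against 20.4 and 16.6 TPM in the heterozygote, with no overlap (change -1.21, SE 0.51, limma adjusted p = 0.423). spn-D was 9.61 and 5.90 TPM against 25.5 and 12.5 TPM (change -1.14, SE 0.51, limma adjusted p = 0.46), again with both mutant libraries below both controls. spn-B was 15.7 and 12.5 TPM against 30.9 and 21.0 TPM (change -0.82, SE 0.43). 9 of the 10 changes were negative, with a median of -0.32 beside -0.07 over all genes, and 5 of the 10 genes did not overlap, against 41.9% of all genes. With equal library medians, where the median of all genes was 0.15, 5 of the 10 changes were negative. The heterozygote had the highest mean of the 8 total mRNA groups for 7 of the 10 genes, spn-D, rec, mei-9, okr, spn-A, mei-P22 and mei-W68. The adult wild type levels of rec (7.61 and 7.57 TPM) lay within the range of the hfp mutant. Of the 53 related genes 1 rose, CG12200 (3.13, SE 0.50), and none passed the test as lower, with a median of -0.47 beside -0.07 over all genes. With the replicate number as a block 2 of the 53 rose and 8 fell, beside 5.76% and 4.11% of all genes. In the synaptonemal complex list the cohesion gene ord rose by 3.07 (SE 0.31) without the block. Muscle sheath genes summed to 1349 to 2210 TPM in the mutant against 267 to 453 TPM, with 2 of 11 called higher, and hemocyte and basement membrane genes to 377 to 402 TPM against 135 to 213 TPM, with none of 10 called. Germline genes summed to 1846 to 3002 TPM against 3249 to 3771 TPM, with none of 11 called. The part of these cells in the changes was not tested.

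The tst RNAi inputs, prepared alongside polysomes, gave the most calls among these genes. Of the 9 genes tested, 5 fell against control inputs and none rose, while 32.3% of all 8426 genes fell and 54% changed in either direction, so much of the table moved as well. With equal library medians the balance of the table turned, with 3089 of 4586 called genes higher where 1828 of 4548 had been, and 6 of the 9 changes stayed negative. The 5 were the break-formation gene mei-P22, the nuclease gene mei-9 and the strand-exchange genes okr, spn-B and spn-D. The groups did not overlap for 7 of the 10 genes, with the untested hdm among the 7, against 77.5% of all genes tested. mei-W68, mei-218 and rec overlapped. The median change of the 9 genes was -0.82 beside -0.17 over all genes. spn-A was 24.7 and 24.1 TPM against 35.7 and 31.5 TPM, without overlap but not past the test (change -0.44, SE 0.19, limma adjusted p = 0.0862). mei-W68, rec and mei-218 were also not called.

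spn-B had the lowest change of the 10 genes. It was 4.15 and 6.49 TPM in tst RNAi inputs against 27.5 and 23.0 TPM in control inputs, with no overlap, and its change was -2.07 (SE 0.25, limma adjusted p = 0.000467). Only 2.41% of all genes had a lower change. Its change stayed between -2.34 and -1.63 and its adjusted p under 0.05 in all 10 alternatives. mei-P22 was 1.53 and 2.51 TPM against 6.06 and 7.69 TPM, again apart, with a change of -1.40 (SE 0.27, limma adjusted p = 0.00387) that also passed in all 10 alternatives.

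The other 3 genes that fell were nearer the centre of all genes. okr was 18.8 and 15.8 TPM against 30.5 and 34.3 TPM (change -0.87, SE 0.19, limma adjusted p = 0.00648). mei-9 was 15.0 and 11.1 TPM against 23.8 and 23.5 TPM (change -0.82, SE 0.22, limma adjusted p = 0.0145). spn-D was 7.74 and 8.43 TPM against 20.2 and 13.3 TPM (change -0.94, SE 0.26, limma adjusted p = 0.0161). In all 3 both tst RNAi inputs lay below both controls. With every library shifted to an equal median, the middle of all genes went to 0.27 from -0.17, and none of these 3 passed (adjusted p from 0.0731 to 0.124), while spn-B and mei-P22 did. Without tst RNAi input replicate 2 the same 3 had adjusted p of 0.0682, 0.137 and 0.0718, and spn-D also missed the threshold without replicate 1 (0.0934) or without control input 1 (0.0738), while without control input 2 rec passed as well (change -0.86, adjusted p = 0.0255).

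hdm went the other way in these inputs, at 1.16 and 0.797 TPM against 0.212 and 0.318 TPM. It was not among the 8426 genes tested, since only 1 input reached 1 TPM. Without the filter on low values its change was 0.64 (SE 0.19, limma adjusted p = 0.0272). In that fit 4636 of 9225 genes were called, 1976 of them higher.

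**Figure D3:**
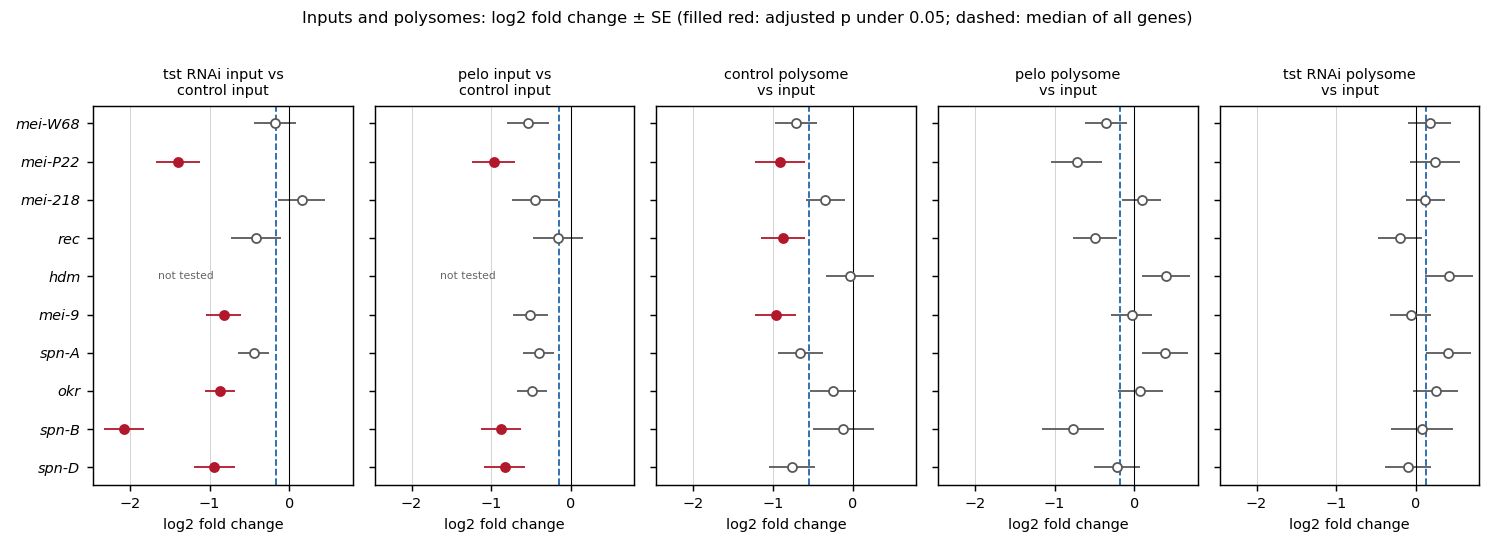
Change of each gene between inputs (first 2 panels) and between polysomes and inputs (last 3 panels) as log2 fold change with its SE (horizontal axis, log2(TPM + 1) scale), with the median of all genes as a dashed line and changes past adjusted p = 0.05 filled in red. spn-B at -2.07 and mei-P22 at -1.40 lie farthest left in the tst RNAi input panel, and in the control polysome panel the dashed line itself lies at -0.55.

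Related genes of DNA repair fell widely in the tst RNAi inputs. Of the 53 genes 40 fell and 1 rose, with a median of -0.99, where 32.3% of all genes fell and their median was -0.17. The list values here are without rescaling. With equal library medians the median of all genes was 0.27. The lowest changes included the nuclease gene mus81 (-2.47, SE 0.20) and Blm (-1.79, SE 0.27) among 7 of 8 crossover genes, the nuclease gene tos (-2.32, SE 0.15) and the helicase gene mus301 (-1.90, SE 0.18) among 13 of 17 resection and strand-exchange genes, and the checkpoint kinase genes lok (-2.25, SE 0.18) and grp (-1.74, SE 0.15) among 8 of 11 checkpoint genes. Irbp, which encodes a Ku subunit (-1.56, SE 0.16), fell with 2 other end-joining genes of 5, and the mismatch repair gene Msh6 (-2.03, SE 0.22) fell with 6 other genes of 8. vilya, a RING-domain partner in break formation, was the gene that rose (1.60, SE 0.27), while trem and CG31053 (nenya) of the same list fell (-0.82, SE 0.24 and -1.51, SE 0.24). The synaptonemal complex and cohesion list was split, with 4 genes higher and 4 lower: cona (3.16, SE 0.32) and sunn (2.46, SE 0.26) rose, and mtrm (-3.12, SE 0.14) and the chromosome segregation motor gene nod (-2.19, SE 0.18) fell.

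Markers of other cells moved in the same libraries. The 11 muscle sheath genes all rose, with summed levels of 5116 to 5178 TPM in tst RNAi inputs against 352 to 450.4 TPM in control inputs, and 9 of 10 hemocyte and basement membrane genes rose, summing to 986 to 1234 TPM against 135 to 147 TPM. All 8 early follicle cell genes rose, to 385 to 442 TPM from 110.3 to 113 TPM. The 9 chorion genes all fell, from 27960 to 40910 TPM to 1172 to 1458 TPM, and 7 of 11 germline genes fell while 1 rose, from 2022 to 2501 TPM to 933 to 1037 TPM. None of the muscle, hemocyte or chorion genes was listed at 0 in these inputs. The part of these shifts in the changes of the 10 genes was not tested.

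The same RNAi genotype thus had spn-B at 4.15 and 6.49 TPM in inputs and at 30.4 and 19.2 TPM in total mRNA, 2 sets of libraries that do not overlap. The difference of the tst RNAi effect between inputs and total mRNA was -1.86 for spn-B (SE 0.54, limma adjusted p = 0.142) and -1.80 for mei-P22 (SE 0.61, limma adjusted p = 0.224). Neither passed the test, and 0.494% of 8909 genes did. For okr and mei-9 the difference was -0.86 and -0.59, with adjusted p of 0.502 and 0.72. This contrast was added after the values had been seen. tst itself was 6.77 and 11.7 TPM in total mRNA and 18.0 and 14.4 TPM in inputs. Marker sums of the tst RNAi sets differed too. Chorion genes summed to 1172 to 1458 TPM in inputs and 19270 to 37130 TPM in total mRNA. Muscle sheath genes summed to 5116 to 5178 TPM and 2750 to 2831 TPM, and germline genes to 933 to 1037 TPM and 2047 to 2834 TPM. The part of the tst level or of these cells in the spn-B level was not tested.

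In pelo mutant inputs 3 of the 9 genes tested fell against control inputs and none rose, where 16.9% of all genes fell and 31.5% changed in either direction. mei-P22 was 2.94 and 3.06 TPM against 6.06 and 7.69 TPM (change -0.97, SE 0.27, limma adjusted p = 0.0335). spn-B was 13.8 and 12.8 TPM against 27.5 and 23.0 TPM (change -0.87, SE 0.25, limma adjusted p = 0.0357). spn-D was 9.48 and 8.15 TPM against 20.2 and 13.3 TPM (change -0.83, SE 0.26, limma adjusted p = 0.0429). The groups did not overlap for any of the 3, nor for 8 of the 9, against 72.3% of all genes. The control inputs are those used for tst RNAi. All 9 changes were negative, with a median of -0.51 beside -0.15 over all genes. With equal library medians none of the 3 passed (adjusted p from 0.083 to 0.106), and no gene passed without pelo input 1 or 2 (0.0865 to 0.145 for the 3) or without control input 1 (0.0634 to 0.18). Without control input 2 mei-P22 missed the threshold (0.0823). Of the 53 related genes 18 fell and 1, vilya, rose (1.18, SE 0.27), tos having the lowest adjusted p among those that fell (-1.14, SE 0.15). All 11 muscle sheath genes rose here as well, to 3196 to 4198 TPM, and 9 of 10 hemocyte and basement membrane genes rose, to 452 to 713 TPM. Germline genes summed to 1388 to 1677 TPM against 2022 to 2501 TPM in control inputs. Chorion genes summed to 17760 to 18540 TPM against 27960 to 40910 TPM. The part of these cells in the result was not tested.

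Polysome samples were set against their inputs to ask how much of each mRNA was ribosome-bound. In the control group the mean log2 change was negative for all 10 genes, though spn-B, okr and hdm were higher in the polysomes of preparation 1, and 3 passed the test: mei-9 (-0.97, SE 0.26, limma adjusted p = 0.0161), rec (-0.87, SE 0.28, limma adjusted p = 0.0315) and mei-P22 (-0.91, SE 0.32, limma adjusted p = 0.0442). The background was 38.4% of 8572 genes lower and 41.7% changed in either direction, and the median of all genes was itself -0.55. This direction rests on the scaling: with every library shifted to an equal median the median of all genes was 0.24, 1324 of 1891 called genes were higher (279 of 3572 before), and 7 of the 10 changes were positive. mei-9 was 11.4 and 11.9 TPM in polysomes against 23.8 and 23.5 TPM in inputs, with no overlap. rec was 7.72 and 2.77 TPM against 13.3 and 6.69 TPM, and these overlap. mei-P22 was 4.26 and 2.30 TPM against 6.06 and 7.69 TPM, without overlap. With that scaling the changes of mei-9, rec and mei-P22 were -0.18, -0.09 and -0.13 and none passed. Without control preparation 1, adjusted p was 0.0559 for mei-9 and 0.062 for rec, and without preparation 2 it was 0.189 for rec and 0.485 for mei-P22, while spn-A passed (change -1.06, adjusted p = 0.0276). Of the 53 related genes 23 were lower in control polysomes and none higher.

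The control preparations, which differ in genotype, did not move alike for spn-B. It went from 27.5 TPM in the input to 44.7 TPM in the polysome sample of preparation 1 and went from 23.0 to 11.8 TPM in preparation 2, the pelo heterozygote. Its mean change was -0.11 (SE 0.39), with the largest SE among the 10 genes in this comparison. okr behaved likewise, from 30.5 to 36.0 TPM and from 34.3 to 20.4 TPM.

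In pelo mutant and tst RNAi ovaries none of the 10 genes passed the limma test between polysomes and inputs, beside 5.9% and 0.035% of all genes. Those shares are unstable: the 506 genes called in the pelo mutant became 0 without the preparation block, 1 with equal medians, 5 without the filter and 1 without pelo preparation 2, and the 3 called in tst RNAi became 2123 when only its own libraries were fitted. At an unadjusted p under 0.05 there were 1 and 0 of the 10, beside 28.4% and 11.5% of all genes. In tst RNAi spn-B was 4.61 and 6.65 TPM in polysomes and 4.15 and 6.49 TPM in inputs, so the low level was the same in both fractions within the spread (change 0.08, SE 0.39). In the pelo mutant spn-B was 5.69 and 9.46 TPM against 13.8 and 12.8 TPM, without overlap (change -0.77, SE 0.39, limma adjusted p = 0.222). hdm was 1.97 and 1.33 TPM in tst RNAi polysomes against 1.16 and 0.797 TPM in the inputs (change 0.42, SE 0.30).

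The ratio of polysome to input had a higher estimate in tst RNAi than in control for all 10 genes, but with equal library medians for only 4 of the 10, and none passed the limma test of the difference, where 23% of all genes did and 22% were higher. At an unadjusted p under 0.05 there were 4, beside 41% of all genes. Their median difference was 0.67 beside 0.70 over all genes. With equal medians the latter was -0.18 and the 1889 genes called higher of 1972 became 0 of 54, while spn-B, mei-218, hdm and okr were at -0.68, -0.41, -0.42 and -0.38. Without tst preparation 1 or 2 no gene of the table was called. The highest were mei-P22 (1.15, SE 0.45, limma adjusted p = 0.0872) and spn-A (1.06, SE 0.40, limma adjusted p = 0.0805). mei-P22 passed without control preparation 1 (1.64, adjusted p = 0.0327), and spn-A without control preparation 2 (1.47, adjusted p = 0.021). Of the 53 related genes 12 had a higher ratio and none a lower one, among them rad50 of the end-resection complex (1.56, SE 0.33) and Msh6 (1.60, SE 0.34). Between pelo mutant and control 0% of the 8572 genes passed in limma and 13.3% had an unadjusted p under 0.05, and of the 10 genes spn-A (1.04, SE 0.40) and mei-9 (0.93, SE 0.37) did. spn-A passed the adjusted threshold without control preparation 2 (1.45, adjusted p = 0.0371).

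The bam-deficient ovaries, single libraries with no replicate check, differed from control inputs in hdm, mei-218 and spn-B, a share of the 10 genes that is at the background given below. Levels of the bamΔ86 mutant come from a table normalized on its own and are set beside the others with that limit. hdm stood at 17.8 TPM with bam RNAi (input) and at 21.96 TPM in bamΔ86 ovaries, while both control inputs had under 1 TPM, at 0.212 and 0.318 TPM. mei-218 was 5.46 TPM in the RNAi input, its highest value, against 1.10 and 0.441 TPM in control inputs, but 1.19 TPM in the mutant. In the same order rec was 21.7 and 15.0 TPM against 13.3 and 6.69 TPM. spn-B was lower, at 7.02 and 6.73 TPM against 27.5 and 23.0 TPM. On the log2(TPM + 1) scale 3 of the 10 genes in the RNAi input lay past 2-fold of both control inputs, hdm and mei-218 above (distances of 3.83 and 1.62) and spn-B below (-1.58), against 30.5% of 8627 genes, 20.1% above and 10.4% below, a measure chosen after the values had been seen. hdm entered this count only because the bam RNAi input was above 1 TPM. It therefore had to lie above both control inputs, and its place in the count supports nothing.

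None of the other 7 genes was past 2-fold of both control inputs when bam was depleted, though rec was past 2-fold of their mean (1.12 on the log2(TPM + 1) scale). Between the RNAi input and bamΔ86, mei-9 was 17.4 and 24.0 TPM, okr was 28.1 and 28.6 TPM, and spn-A was 44.2 and 33.0 TPM. spn-D was 14.5 and 9.85 TPM, mei-P22 was 6.45 and 6.19 TPM and mei-W68 was 2.34 and 1.53 TPM. In the polysome library, which held late-stage transcripts that its input lacked, hdm was 6.85 TPM, mei-218 2.13 TPM, rec 8.99 TPM and spn-B 15.2 TPM, each nearer to the control inputs than its own input was. There hdm alone was past 2-fold of both control polysomes (distance 2.66), against 21.1% of all genes. Since hdm entered that count only through the bam RNAi polysome library, it had to lie above both control polysomes and supports nothing. The muscle sheath genes summed to 7975 TPM in the RNAi input and 7363 TPM in the mutant, and the early follicle cell genes to 572 and 649 TPM. Their part in the levels was not tested.

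**Figure D4:**
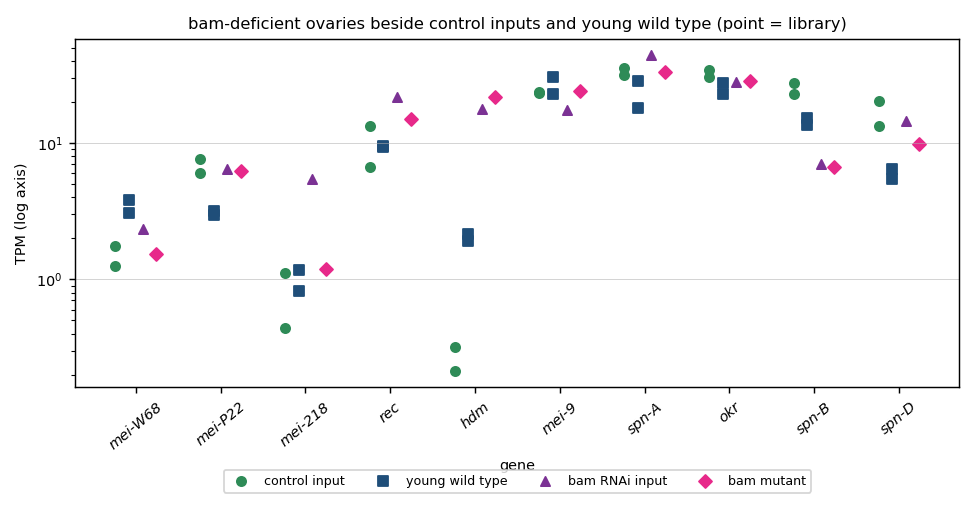
Level of each gene in TPM (log axis) in the 2 control inputs, the 2 young wild type libraries, the bam RNAi input and the bam mutant, with 1 point per library. hdm runs from 0.212 TPM in a control input through 1.90 and 2.16 TPM in young ovaries to 17.8 and 21.96 TPM in the bam-deficient libraries, and spn-B has the reverse order, from 27.5 TPM to 6.73 TPM.

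Over the means of the 14 groups of 2 libraries, which hold the same libraries as the comparisons above, spn-B varied with okr (Pearson r = 0.75), mei-P22 (0.718) and spn-D (0.708). mei-9 varied with mei-W68 (0.762) and mei-P22 (0.739). hdm varied with mei-218 (0.701) and against spn-D (-0.662) and spn-B (-0.64). spn-A and spn-B, both of strand exchange, had an r of only 0.258. These values are a description of the 14 group means and carry no test.

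Among 7848 genes that reach a group mean of 5 TPM, the genes most like each were named by the same Pearson r over the 14 groups. For hdm these were Wnt4 (0.908), which is on the early follicle cell list, Npc2f (0.903) and Cyp6a2 (0.895). For spn-B they were CG4615 (0.969), yin (0.952) and Ggt-1 (0.944). For mei-W68 they were Ptp4E (0.942), the meiotic cohesion gene solo (0.938) and lncRNA:CR32218 (0.922). The strand-exchange genes had partners of other kinds. spn-D was most like CG32579 (0.943), the replication origin gene Orc6 (0.937) and fs(2)ltoPP43 (0.932). okr was most like CG14043 (0.915), TfIIEalpha (0.906) and CG8001 (0.900), and spn-A was most like CG4617 (0.904), CG3342 (0.887) and Yip1d1 (0.882). The remaining break-formation and crossover genes did not share a partner with any of these. mei-P22 was like CG8833 (0.944) and Kdm4A (0.940), and mei-9 was most like MetRS (0.965), l(3)76BDm (0.961) and CG32104 (0.959). rec was most like gfzf (0.913), Rcd1 (0.905) and Strumpellin (0.900), and mei-218 was most like hfw (0.905), CG6023 (0.887) and CG9098 (0.837).

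In the dm6 assembly the genes lie on 5 chromosome arms. spn-A (chr3R:30054696-30056037), spn-B (chr3R:14328051-14329608), spn-D (chr3R:27165716-27167122) and rec (chr3R:15823019-15832632) lie on 3R, hdm (chrX:7918517-7920131), mei-9 (chrX:4314230-4318801) and mei-218 (chrX:17135985-17142990) on X, mei-P22 (chr3L:7244388-7245383) on 3L, okr (chr2L:2989594-2992759) on 2L and mei-W68 (chr2R:19456170-19459523) on 2R. Their annotated spans run from 996 bases for mei-P22 to 9614 bases for rec. hdm, mei-P22 and spn-D overlap no other annotated gene. mei-W68 overlaps par-1, mei-218 overlaps CG5004 and mei-217, rec overlaps alpha-Man-IIb and CG4576, mei-9 overlaps lncRNA:CR44957, spn-A overlaps Jasper and Rpp14b, okr overlaps Bem46 and spn-B overlaps NK7.1. Where reads were counted without strand, the values of these 7 genes may hold reads of the overlapping gene, and whether strand was used in the libraries with no strand label is not known.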

How the data were processed

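HISAT2 2.0.5, featureCounts 1.5.1 and the dm6 build are named in the submitters' processing notes, which give no annotation and no TPM formula here. The tables hold log2 TPM values made by the authors, per the file headers. Since the antilog less 0.5 summed to 1000000 in every column, values were read as log2(TPM + 0.5), and all statistics used log2(TPM + 1). The bam mutant came in its own table, normalized separately, and entered no test.

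A gene was tested where 2 libraries of the fit reached 1 TPM. limma 3.58.1 (R 4.3.3, variance trend) was run on 8864 genes over 16 total mRNA libraries, 8426 over 6 inputs and 8572 over 12 input and polysome libraries, the last with the preparation as a block. P-values were adjusted by Benjamini-Hochberg over all genes, with a threshold of 0.05 in 12 comparisons. The labels do not say that replicates came from separate animals, so p-values measure only the spread between these libraries.

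In the wild type and tst total mRNA groups, libraries numbered 2 have a reverse strand label and those numbered 1 have none, so the number splits them. Deviations from group means of same-numbered libraries correlated at 0.613 to 0.762 among these 4 groups. Members and lists were chosen with earlier results of these data known. Beside the members, list genes named are at most 4 per list with the smallest adjusted p among those called, and for each member the 3 genes with the highest r. Of these, 1 gene is not reported here. mei-217, mus312 and Rad1 were not analysed here. Coordinates are those of RefSeq, Release 6 plus ISO1 MT. Alternatives were another pseudocount, no filter, equal medians, quantile normalization, the replicate block, only the groups compared and each replicate left out. Figures were drawn with matplotlib 3.10.9 in Python 3.11.15. The test code was run on simulated data with independent noise. Those data lack the shared deviations of same-numbered libraries, so the run does not check the tests under them.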

Additional observations from a re-analysis of the deposited data

How the results depend on the processing

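All 12 called changes of the 10 genes kept their sign under every alternative run. Among them was hdm in young ovaries, tested only through its 2 young libraries. Its sign in the filtered fits was set by the filter, and its place in this count supports nothing. The 2 called under every alternative were spn-B and mei-P22 in tst RNAi inputs. Of the 106 changes not called, 12 were called under at least 1 alternative. The counts of genes called moved as follows. Young against adult: 0 with quantile normalization, 2 with the replicate block. The tst mutant: 1 with the replicate block. The hfp mutant: 1 with the replicate block (rec, adjusted p = 0.0358). tst RNAi inputs: 2 with equal library medians. pelo inputs: 0 with equal library medians, 0 with the replicate block (mei-P22 0.0507, spn-B 0.0675, spn-D 0.0694 as adjusted p) and 1 with only the groups compared. Control polysomes: 0 with equal library medians, 0 with quantile normalization and 1 with only the groups compared. That 1 was mei-W68 (limma adjusted p = 0.0407), while mei-9, rec and mei-P22 all lost their calls there (0.147, 0.149 and 0.111). Leaving out 1 library or preparation gave 0 to 1 for young against adult, 2 to 6 for tst RNAi inputs, 0 to 2 for pelo inputs, 1 to 2 for control polysomes and 0 to 1 for each difference of ratios. The lone library of such an arm is assumed to vary like the other groups. The replicate block changed no other call among the 10 genes in total mRNA. Same-numbered libraries deviated together in pelo (r = 0.653) and hfp (0.717), a hint from the data only, and not in tst RNAi and control inputs (-0.00762).

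Over all genes, the block moved the calls from 983 to 3322 for young, 375 to 2082 for the tst mutant, 90 to 429 for tst RNAi, 20 to 359 for pelo and 88 to 875 for hfp. Fitting only the groups compared gave 1967 for young, 16 for the tst mutant, 0 for pelo and 0 for hfp, and equal medians gave 26 for tst RNAi and 1 for pelo. Leaving out 1 library gave 324 to 469 for young, 29 to 607 for the tst mutant, 3 to 15 for tst RNAi, 3 to 35 for pelo and 23 to 294 for hfp. It gave 2931 without tst RNAi input replicate 2 in place of 4548, and 923 to 3699 in place of 2652 for pelo inputs. For control polysomes 3572 became 1891 with equal medians, 1690 with quantile normalization and 1779 with only the groups compared, and for the tst RNAi ratio difference 1972 became 54, 0 and, without the block, 1107, with 0 to 3156 when 1 preparation was left out. For the pelo ratio difference leaving out 1 preparation gave 0 to 1090 in place of 0, and for pelo polysomes fitting only the groups compared gave 1228 in place of 506. TPM keeps no depth, so the precision of mei-218 and hdm, mostly under 1 TPM, cannot be given.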
